A study of Arabidopsis thaliana with 24 samples.

Results

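The levels of 5 protein-coding transcripts of *Arabidopsis thaliana* differed between *gnat2* and wild-type (WT) plants whatever light the plants had been kept in: *MRD1* (AT1G53480), AT5G11330, AT3G24516, AT4G21650 and *RPL27AB* (AT1G23290). They are 5 of the 27826 transcripts measured and were chosen by their *gnat2* against WT differences in most or all of the 3 lights, so those differences are given here as a description without a test. The questions put to the data were how these transcripts responded to light, where their genes lie relative to the insertion in *GNAT2*, and whether the genes around them differed between the genotypes too. WT plants were of the ecotype Col-0, and *gnat2* plants are a single T-DNA insertion line in the same ecotype that lacks *GNAT2*, a plastid acetyltransferase. Plants aged 4.5 weeks stayed at a photon flux of 120 µmol m-2 s-1 as a control (C) or spent 2 h in high light (HL, 1000 µmol m-2 s-1) or in darkness (D), with 4 biological replicates for each genotype and light. This gave 24 arrays in 6 groups. With 1 mutant line, the loss of *GNAT2* and any other difference between the 2 lines of plants cannot be told apart.

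A T-DNA insertion disrupts the gene it lies in, and genes beside it can also change in transcript level. Insertion lines can also differ from their WT parent at places far from the known insertion, through further insertions or through changes in DNA methylation that are inherited with the line. Such differences can be present in every condition, as can changes that follow from the loss of the protein itself. *MRD1* was named as a gene whose transcript is low in *mto1*, a mutant that accumulates methionine because cystathionine gamma-synthase is no longer held back. *RPL27AB* encodes the protein L27a of the large subunit of cytosolic ribosomes. AT5G11330, AT3G24516 and AT4G21650 carry no gene name in the annotation used here, which lists all 5 genes as protein-coding.

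The values are log2 intensities brought to 1 distribution on all arrays, with a median of 2.35 and quartiles of 1.35 and 4.79, so that differences in total mRNA are lost, and the number of arrays limits the precision. Within groups, the mean Pearson r between arrays, across transcripts that are not independent, lay between 0.981 and 0.991. The level of the targeted gene matched the labels on every array, with *GNAT2* at 5.31 to 6.30 in the 12 WT samples and at 1.53 to 2.39 in the 12 *gnat2* samples. The mean difference was -4.03 in C, -3.75 in HL and -4.08 in D. Leaf transcripts (*RBCS1A*, *RCA*, *GAPA* and *CA1*) lay between 8.32 and 12.7 on all arrays, and the seed and flower markers lay at or below 2.13. The root transcript *PYK10* ranged from 1.23 to 4.37, with a wide spread within each group, and was not called between the genotypes (limma, adjusted p between 0.738 and 0.978). In whole rosettes, fewer cells that make a transcript and less of it per cell cannot be told apart.

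*MRD1* was measured in WT under C at 2.56, 2.51, 2.66 and 3.21, under HL at 2.97, 2.93, 3.04 and 3.25, and under D at 3.32, 3.76, 3.71 and 3.20. In *gnat2* the same transcript was at 1.64, 1.53, 1.57 and 1.44 under C, at 1.53, 1.44, 1.42 and 1.42 under HL, and at 1.72, 1.48, 1.85 and 1.43 under D. All 12 *gnat2* values therefore lay below all 12 WT values, and the *gnat2* values lay closer together than the WT values did. The difference between *gnat2* and WT was -1.19 in C, -1.60 in HL and -1.88 in D, or 2.29-, 3.02- and 3.67-fold, which may be too small since *MRD1* in *gnat2* was as dim as the seed markers. In WT the transcript stood near the middle of the array, above a mean of 54.1% of all transcripts in C and 61.6% in D, whereas in *gnat2* it stood above 33.9% and 35.8%. The levels in *gnat2* were thus near the lower quartile of the arrays, between 1.42 and 1.85.

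AT5G11330 was the brightest of the 5 in WT under C, at 6.91, 7.22, 6.99 and 7.10, and stood there above a mean of 94.3% of all transcripts. Under HL its WT values were 6.59, 6.79, 6.92 and 6.79, and under D 6.65, 6.51, 6.71 and 6.56. In *gnat2* it lay at 5.48, 5.54, 5.59 and 5.64 under C, at 5.14, 5.41, 5.32 and 5.17 under HL, and at 5.30, 4.84, 5.48 and 5.50 under D. The genotypes did not overlap in any light, and the highest *gnat2* value, 5.64, lay below the lowest WT value, 6.51. The difference was nearly the same in each light, at -1.49 in C, -1.51 in HL and -1.33 in D. With 4.84 in 1 *gnat2* replicate, D was the light with the widest spread in *gnat2* (SD 0.31, n = 4).

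AT3G24516 was the only one of the 5 with more transcript in *gnat2*. In WT it lay at 1.87, 2.26, 2.05 and 1.82 under C, at 1.56, 1.91, 2.13 and 2.57 under HL, and at 2.41, 2.70, 2.48 and 2.47 under D, which is around the array median. In *gnat2* it lay at 3.15, 3.42, 3.97 and 3.16 under C, at 3.41, 3.40, 3.24 and 3.32 under HL, and at 3.91, 3.37, 3.45 and 3.78 under D. Again the genotypes did not overlap, with 2.70 as the highest WT value and 3.15 as the lowest *gnat2* value. The difference was 1.43 in C, 1.30 in HL and 1.11 in D, or 2.69-, 2.46- and 2.16-fold. The WT values overlapped those of *GNAT2* in its own mutant (1.53 to 2.39), so that these folds may be too small.

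AT4G21650 had the largest spread between replicates of the 5, with an SE of 0.21 for a difference between 2 groups. Its WT values were 5.33, 5.84, 5.37 and 5.36 under C, 4.96, 5.24, 4.67 and 4.69 under HL, and 4.54, 4.87, 5.21 and 5.15 under D. The *gnat2* values were 4.75, 4.53, 3.73 and 4.47 under C, 3.69, 3.98, 3.33 and 4.04 under HL, and 3.67, 4.11, 3.41 and 3.52 under D. Within each light all WT values were above all *gnat2* values, but across lights they overlapped, since *gnat2* in C reached 4.75 and WT in D went down to 4.54. The difference was -1.11 in C, -1.13 in HL and -1.27 in D.

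*RPL27AB* lay in WT at 6.15, 6.29, 6.39 and 6.78 under C, at 6.46, 6.60, 6.66 and 6.75 under HL, and at 6.37, 5.98, 6.46 and 6.42 under D. In *gnat2* it lay at 5.57, 5.49, 5.62 and 5.53 under C, at 6.16, 6.04, 6.20 and 6.30 under HL, and at 5.25, 5.19, 5.23 and 5.27 under D. The 3 lights were clearly separated in *gnat2*, where no 2 lights overlapped, while the WT values of the lights overlapped. The difference between *gnat2* and WT was -0.85 in C, -0.44 in HL and -1.07 in D. It is the only one of the 5 whose difference was smaller than 1 on the log2 scale in any light.

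**Figure D1:**
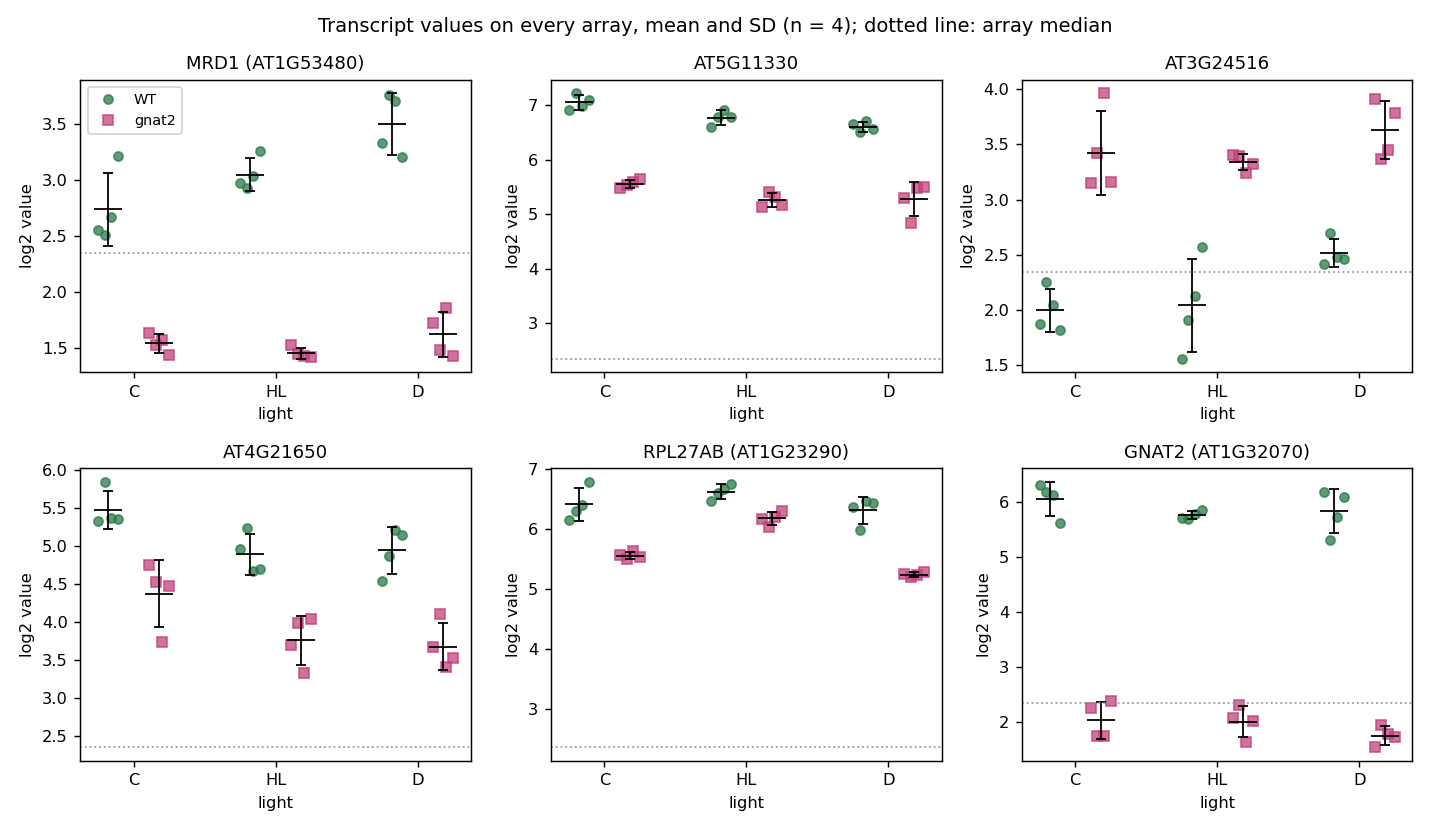
Log2 values of the 5 transcripts and of GNAT2 on each of the 24 arrays, by light (C, HL, D) on the horizontal axis, with WT as green circles and gnat2 as pink squares. Bars give the mean and SD (n = 4) and the dotted line the array median of 2.35, and the vertical scales differ between panels. WT and gnat2 do not overlap within any light in any panel.

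Over the lights, then, 5 of 5 transcripts had WT and *gnat2* values that did not overlap in C, HL and D, where 9.36%, 10.5% and 9.88% of all transcripts did so. A difference between the genotypes was called by limma, at an adjusted p under 0.05, for 1.30% of all transcripts in C, 1.92% in HL and 3.92% in D. These shares describe the background only, because the same contrasts picked the 5 transcripts.

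The response to light was tested on the mean of both genotypes, a contrast orthogonal to the differences used to choose the transcripts. Each average compares 8 arrays with 8, the estimate of the spread is that of the full fit, and HL against C and D against C share the C arrays. The same spread belongs to the differences that chose the transcripts, so a choice of transcripts with a small spread could raise the counts called. In HL against C, 3 of the 5 changed, 1 upwards and 2 downwards, where 32.7% of all transcripts were called (16.3% higher and 16.5% lower). In D against C, 4 changed, 2 in each direction, where the background was 35.4% (17.3% higher and 18.1% lower). In HL against D, 3 changed, 1 higher and 2 lower in HL, beside 46.2% of all transcripts (23.4% higher and 22.8% lower). With 5 transcripts, no test set these counts apart from the background. The median size of the response over the 5 was 0.29, 0.36 and 0.31 on the log2 scale in these comparisons, against 0.16, 0.17 and 0.23 over all transcripts.

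AT4G21650 had the strongest responses relative to C and fell under both treatments, by 0.60 in HL (SE 0.15, adjusted p = 0.00229 from limma) and by 0.61 in D (SE 0.15, adjusted p = 0.00164). HL and D did not differ from each other beyond the error, with a difference of 0.02 and a 95% interval from -0.29 to 0.32. WT and *gnat2* showed like values, with -0.59 and -0.61 for HL and -0.53 and -0.69 for D.

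AT5G11330 likewise fell in both, by 0.29 in HL (SE 0.09, adjusted p = 0.0115 from limma) and by 0.36 in D (SE 0.09, adjusted p = 0.00157). Its HL and D levels differed by 0.07, with an interval from -0.11 to 0.26. The HL response was -0.28 in WT and -0.30 in *gnat2*, and the D response -0.45 and -0.28. Both transcripts were thus highest in control light, whether the light was raised or taken away.

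*RPL27AB* rose in HL, by 0.42 (SE 0.09, adjusted p = 3.96e-04 from limma), and was 0.62 higher in HL than in D (SE 0.09, adjusted p = 9.52e-07). Its D value was -0.21 relative to C (SE 0.09, adjusted p = 0.0683) and did not pass the test. That value passed it, with an adjusted p of 0.0459, without WT D replicate 3, and with 0.0258 without WT C replicate 1. It also passed, with an adjusted p of 0.0409 from limma, when the replicate number was taken as a block. The HL response was 0.21 in WT and 0.62 in *gnat2*, a difference between the responses of 0.41 (SE 0.17), and the D response was -0.10 and -0.32. These differences between genotypes follow from the contrasts that chose the transcript and were not tested.

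*MRD1* rose in D, by 0.42 (SE 0.10, adjusted p = 0.00177 from limma), and was lower in HL than in D by 0.31 (adjusted p = 0.0145), while HL against C gave 0.11 (SE 0.10, adjusted p = 0.486). The mean hides unequal parts, since the D response was 0.76 in WT and 0.08 in *gnat2*, and the HL response 0.31 and -0.09. The *gnat2* values of *MRD1* lay in the range of the seed markers, so that a response of it there could be too dim to measure, and the unequal responses were not tested.

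AT3G24516 rose in D by 0.36 (SE 0.13, adjusted p = 0.0328 from limma), and its HL level was 0.38 below that in D (a difference of -0.38, adjusted p = 0.0183). HL against C gave -0.02 (SE 0.13, adjusted p = 0.940). The rise in D was 0.52 in WT and 0.20 in *gnat2*. This call was the least certain of those made: the adjusted p was between 0.0600 and 0.0796 without any one of *gnat2* D replicates 1 and 4, *gnat2* C replicates 1 and 4, WT D replicate 2 or WT C replicates 1 and 4, and it was 0.0512 without moderation of the spread by limma and 0.0510 with an intensity trend of the prior spread. The call between HL and D was lost without WT HL replicate 1, with a difference of -0.30 and an adjusted p of 0.0543.

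**Figure D2:**
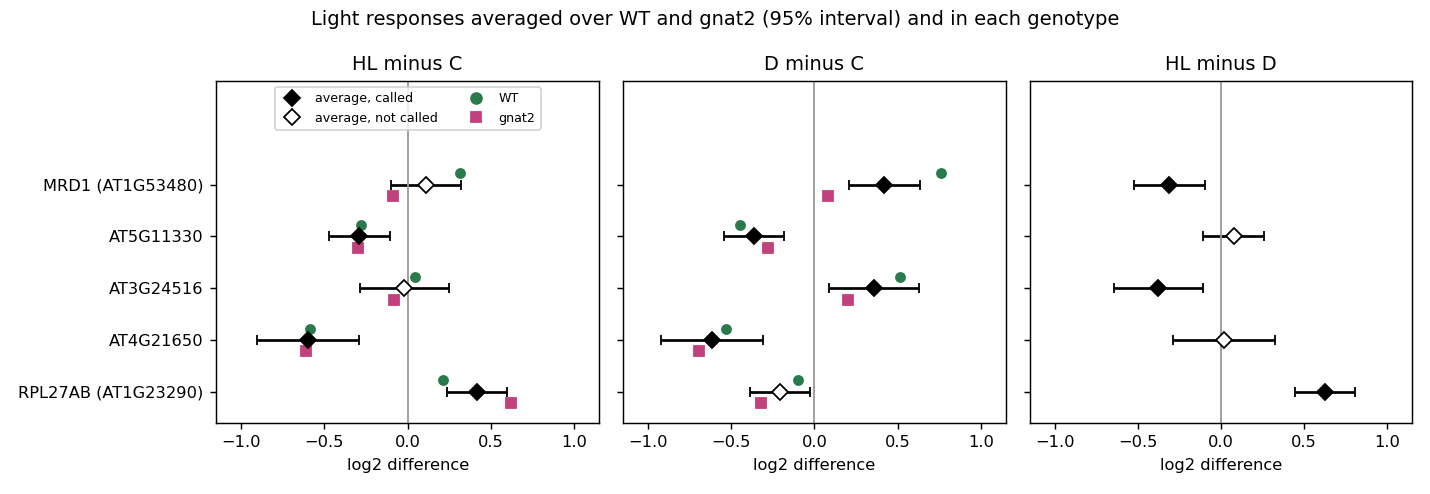
Light responses of the 5 transcripts on the log2 scale, as HL minus C, D minus C and HL minus D. Diamonds give the mean of both genotypes with its 95% interval, filled where the adjusted p was under 0.05, and green circles and pink squares give WT and gnat2 alone in the comparisons with C. AT4G21650 and AT5G11330 lie left of 0 under both treatments, RPL27AB lies right of 0 in HL, and MRD1 lies right of 0 in D, with 0.76 in WT and 0.08 in gnat2.

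The 5 varied together only weakly. Around the means of the 6 groups, Pearson's r between pairs of them over the 24 arrays ranged from -0.37 to 0.34, with a median of 0.10 over the 10 pairs, which is a description since the arrays are the only points.

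*GNAT2* lies on chromosome 1. Of the 5 genes, *MRD1* and *RPL27AB* lie on that chromosome, but 2171 and 1098 annotated genes away from *GNAT2*, and AT5G11330, AT3G24516 and AT4G21650 lie on chromosomes 5, 3 and 4. None of the 5 is therefore a neighbour of the known insertion. Beside *GNAT2* itself, 24 of the 40 annotated genes within 20 genes on either side were measured. In each light the same single transcript of these was called, that of the directly adjacent gene *PRK*, which encodes phosphoribulokinase of the Calvin-Benson cycle. Over all transcripts, the share called was 1.30% in C, 1.92% in HL and 3.92% in D.

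*PRK* was lower in *gnat2* in C (-0.997, SE 0.13, adjusted p = 2.08e-04 from limma), in HL (-1.45, adjusted p = 3.17e-07) and in D (-0.91, adjusted p = 4.13e-04). Its levels were high all the same, at 9.22 ± 0.16 in WT and 8.23 ± 0.06 in *gnat2* under C (SD, n = 4). At an unadjusted p under 0.05, 6, 3 and 3 of the 24 passed in C, HL and D, without a share over all transcripts to compare them with. With 40 genes on either side, 54 were measured and no further transcript was called.

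The genes around the 5 were not used to choose them and could be tested. Of the 50 annotated genes within 5 genes on either side of a member, 41 were measured. Between *gnat2* and WT, 1 of them was called in C, 0 in HL and 2 in D (limma, adjusted p under 0.05), all lower in *gnat2*. Over all transcripts, 1.30%, 1.92% and 3.92% were called in C, HL and D, and no test set the counts apart from these shares. Unadjusted p-values under 0.05 were found for 6, 5 and 7. The share of all transcripts at that unadjusted limit was not computed, so these counts cannot be set against a background. The median size of the difference over the 41 was 0.14, 0.11 and 0.16, against 0.15, 0.14 and 0.16 over all transcripts. With 10 genes on either side, 80 were measured and no further transcript was called.

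The called neighbours all belong to the stretch around *MRD1*. *MUM4* (AT1G53500), a rhamnose synthase gene known for seed coat mucilage, lies 3 genes from *MRD1* and was at 4.17 ± 0.21 in WT and 3.57 ± 0.21 in *gnat2* under C (SD, n = 4). It was lower in *gnat2* in C (-0.60, SE 0.14, adjusted p = 0.0331 from limma) and in D (-0.61, adjusted p = 0.0159), while HL gave -0.25 (adjusted p = 0.427). *HEI10* (AT1G53490), which acts in meiotic crossing over, lies between *MRD1* and *MUM4* and was lower in D, with 2.13 ± 0.20 in WT and 1.48 ± 0.15 in *gnat2* (SD, n = 4; -0.65, SE 0.15, adjusted p = 0.0189). In C and HL its values were -0.23 (adjusted p = 0.502) and -0.36 (adjusted p = 0.263).

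These calls are near the threshold. The *MUM4* call in C was lost without *gnat2* C replicate 2 or 3 or WT C replicate 2, 3 or 4 (adjusted p between 0.0605 and 0.117), its call in D without *gnat2* D replicate 1 (0.0607) or 3 (0.0517), and the *HEI10* call without *gnat2* D replicate 4 (0.0634) or WT D replicate 3 (0.0518). The difference of *MRD1* itself was larger than that of either neighbour in every light. *MRD1* was chosen by this difference and the neighbours were not, so the comparison is a description only. The genes annotated directly beside *MRD1*, *U6.9p* and AT1G07887, were not among the transcripts measured.

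Around the other 4 genes no neighbour was called in any light. Next to AT5G11330, whose own differences were at least 1.33 in size, AT5G11340 gave -0.14, -0.06 and -0.04 in C, HL and D. Next to AT3G24516, AT3G24517 gave 0.01, 0.03 and 0.20, at a low mean level of 1.16. AT5G11325 and AT3G24514, on the other side of AT5G11330 and AT3G24516, were not measured. AT4G21650 lies between AT4G21640, with 0.35, 0.22 and 0.34 (adjusted p = 0.105, 0.343 and 0.0723 from limma, mean level 1.17), and AT4G21660, with 0.20, 0.18 and 0.09. All 6 of these values were opposite in sign to those of AT4G21650. Beside *RPL27AB*, AT1G23280 gave -0.14, -0.06 and -0.03, and AT1G23300 gave 0.38, -0.11 and 0.20.

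**Figure D3:**
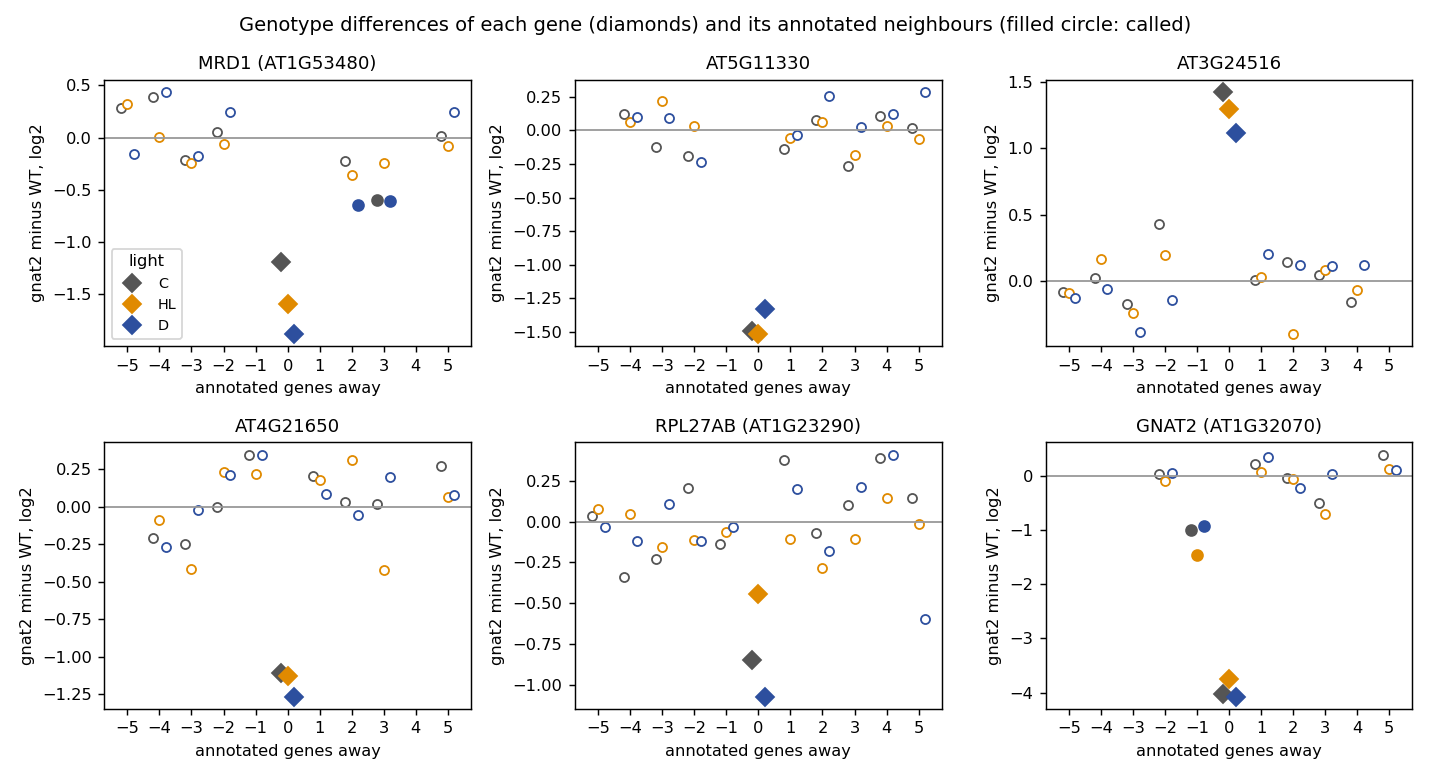
Difference between gnat2 and WT on the log2 scale for each of the 5 genes and GNAT2 (diamonds at 0) and for their annotated neighbours up to 5 genes away, in C (grey), HL (orange) and D (blue). Filled circles mark neighbours with an adjusted p under 0.05, and vertical scales differ between panels. Filled circles occur beside GNAT2, where PRK lies between -0.91 and -1.45, and beside MRD1, where MUM4 and HEI10 lie between -0.60 and -0.65.

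A difference between the genotypes that was called in every light with the same sign was rare. It was found for 45 of all transcripts (0.162%), of which 23 were higher and 22 lower in *gnat2*, and 30 of the 45 were protein-coding, 8 of them higher and 22 lower. The others were 4 tRNAs, 4 snoRNAs, 2 long noncoding RNAs and 5 that the annotation does not list. The 5 transcripts were picked on this pattern, and 4 of them are among the 45, all but *RPL27AB*. Ranked by the smallest difference over the lights, the coding transcripts began with *GNAT2* (3.75), AT5G11330 (1.33), *MRD1* (1.19), AT3G24516 and AT4G21650 (1.11 each) and *PRK* (0.91).

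They were followed by AT1G43720 (0.89), AT5G18150 (0.89), AT2G07820 (0.77) and AT3G44006 (0.67), all of them higher in *gnat2*. The 4 were chosen by these differences, so their place behind *GNAT2* and before *PRK* follows from the choice and is a description only. Of the 4, 3 were lower in *gnat2*, as were 22 of the 30 coding transcripts in this list. Of the 10 coding transcripts named, 5 were higher in *gnat2*, and AT3G24516 had the largest smallest-difference among those 5. The number of transcripts called in every light moved with the arrays used, from 22 without *gnat2* HL replicate 2 to 45, and counts of 25 to 29 were obtained without *gnat2* C replicate 2, 3 or 4, *gnat2* HL replicate 1, 3 or 4, WT C replicate 4 or WT HL replicate 1.

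**Figure D4:**
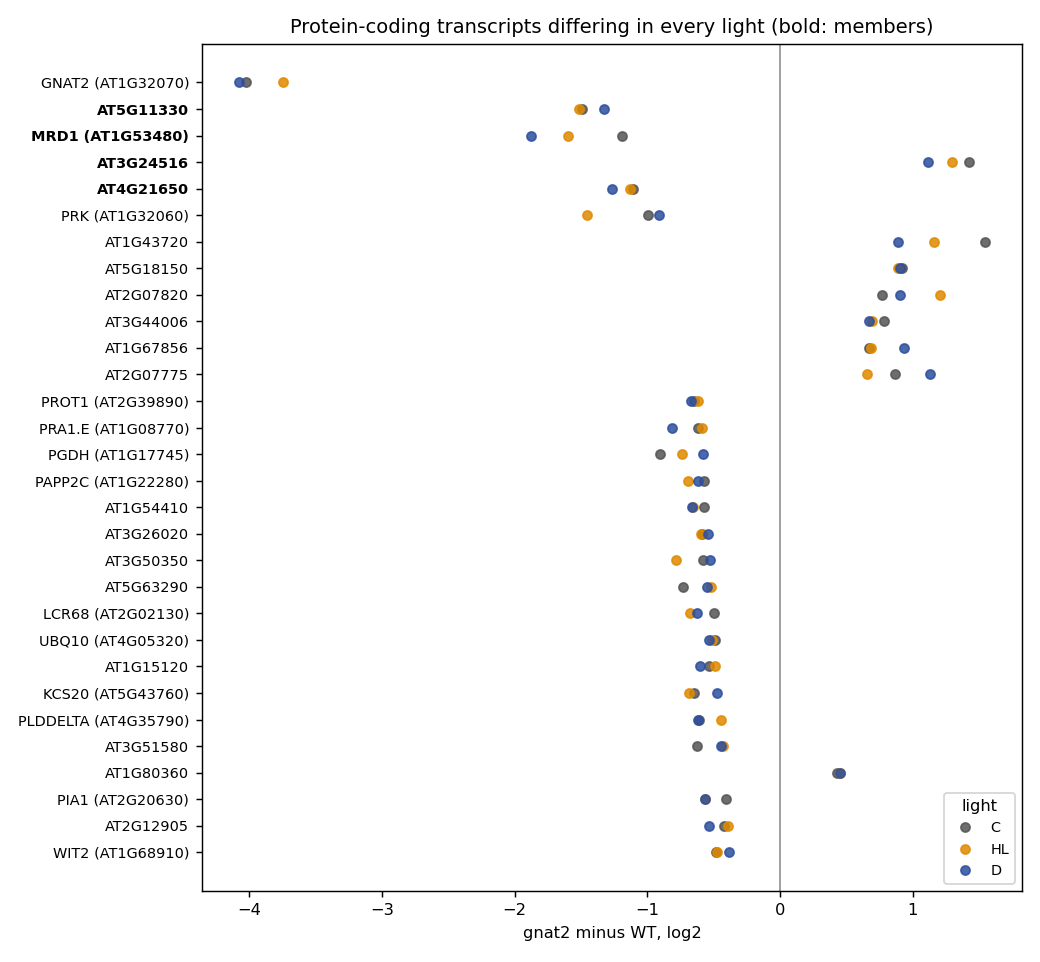
Difference between gnat2 and WT on the log2 scale in C (grey), HL (orange) and D (blue) for the 30 protein-coding transcripts called with the same sign in every light, ordered by their smallest difference. The 4 of the 5 transcripts that are among them (bold) follow GNAT2 at the top, with smallest differences from 1.11 to 1.33. Their place follows from their choice by these differences.

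The transcripts with the pattern most like that of each member were found by Pearson's r over the 24 arrays, which share genotype and light, so that r mostly reflects the difference between the genotypes. *MRD1* was most like *GNAT2* (r = 0.903), *PRA1.E*, a prenylated RAB acceptor (0.884), and AT5G18160 (0.868). AT5G11330 was most like *GNAT2* (0.957), *WIT2*, a WPP domain-interacting protein of the nuclear envelope (0.938), and AT5G63290 (0.927). By Spearman's rho *GNAT2* came far behind other transcripts for both, with 0.675 and 0.798, and *WIT2* was first for AT5G11330 with 0.920.

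AT3G24516 was most like the snoRNA AT2G35744 (r = 0.906), the tRNA AT2G07743 and the mitochondrial ATMG01070, which the annotation does not list (0.891 each). The latter pair had nearly the same mean level, at 7.25 and 7.26, and nearly the same genotype difference in each light. AT4G21650 was most like AT1G76880 (0.890), *PIA1*, a protein phosphatase of type 2C (0.857), and the pectin methylesterase gene *PMEPCRA* (0.854). *RPL27AB* was most like AT1G27930 (0.913), AT1G79260 (0.903) and *RL4*, a RAD-like gene (0.881). No member was among the 3 most like another by r. The order depends on the measure, since 3 of these 15 transcripts were also among the first 3 by rho, namely *WIT2*, AT2G35744 and AT1G76880, and none of those given for *MRD1* or *RPL27AB* was.

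*RPL27AB* can be set beside the other genes of its family. AT1G70600, annotated in the study's supplement as a ribosomal protein gene and put in the L27a family here, responded more strongly to light, rising by 1.21 in HL (SE 0.16, adjusted p = 1.14e-06 from limma) and falling by 0.96 in D (adjusted p = 2.89e-05), so that HL was 2.17 above D. Its *gnat2* against WT differences were 0.23, 0.32 and -0.22 in C, HL and D, none of them called. The direction in HL was thus shared with *RPL27AB*, and the lower level in *gnat2* was not called for this gene. AT1G12960, also put in the family, was near the lower limit of the arrays at a mean of 1.24. It was lower in *gnat2* in C (-0.45, SE 0.10, adjusted p = 0.0280), a call lost without *gnat2* C replicate 2, 3 or 4 or WT C replicate 2, and gave 0.02 in HL and -0.18 in D.

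Genes of methionine synthesis and use were looked at because of the name of *MRD1*. All 11 were measured, and none was called between the genotypes in C, where *MRD1* was already lower in *gnat2*. In HL, *SAM1*, an S-adenosylmethionine synthetase gene, was higher in *gnat2* (0.60, SE 0.11, adjusted p = 0.00488 from limma), and in D *MTO3*, another synthetase gene of this kind, was lower (-0.76, SE 0.17, adjusted p = 0.0116). *CGS1*, which encodes the cystathionine gamma-synthase altered in *mto1*, was not among the genes called between the genotypes.

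In HL against C, 7 of the 11 methionine genes rose and 1 fell, where 32.7% of all transcripts were called, with a median of 0.42 beside -0.01 over all transcripts. In D against C, 2 rose and 7 fell, where 35.4% were called, with a median of -0.68 beside -0.00062. In HL against D, 10 were higher and 0 lower, where 46.2% were called, with a median of 0.96 beside -0.0050. The methionine synthase transcript *ATMS2* rose by 1.54 in HL and fell by 2.69 in D. *MRD1*, with 0.11 in HL and a rise of 0.42 in D, did not share the direction of most of them in D. Of 4 subtilase genes named *SBT3* in the annotation, none differed between the genotypes in any light by limma at an adjusted p under 0.05, and only *SBT3.12* responded to HL (-0.52, adjusted p = 0.0279).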

How the data were processed

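The series holds 24 arrays of rosettes from WT and *gnat2* plants in 3 lights, with 4 per group, and the groups and replicate numbers were taken from the sample labels. The authors hybridized RNA to Affymetrix Arabidopsis gene arrays, assigned probes with a custom chip definition file to TAIR gene definitions, and deposited log2 values after background correction by RMA and quantile normalization. The table of 27826 transcripts had 0 missing values. The genome build is not given in the sources used here. The fit of limma 3.58.1 (R 4.3.3) took all arrays with 1 mean per group (18 residual and 6.05 prior degrees of freedom). Tests were two-sided, adjusted by the Benjamini-Hochberg method over all transcripts within each comparison and called at an adjusted p under 0.05. The fit was tested on simulated data with known changes.

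The 5 transcripts, the gene lists and the tests were chosen with earlier results of these data known. Gene order and names are those of RefSeq (TAIR10.1), where 27241 transcripts and all 5 members were found. No sequences were used, and lists by shared description could not be drawn up for AT5G11330 and AT3G24516. The text names the members, *GNAT2*, *PRK*, neighbours called in 2 lights and those directly beside a member, related genes called between the genotypes, the *RPL27A* paralogs, the 3 transcripts most like each member, and up to 10 coding transcripts called in every light. *HEI10*, called in 1 light, and *ATMS2*, *CGS1*, *SBT3.12* and the marker genes were named outside that rule, and *HEI10*, *ATMS2* and *SBT3.12* after their values were seen.

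As alternatives, the fit was repeated with a replicate block, without moderation, with a trend of the prior spread on intensity, with array weights, after cyclic loess or centring on array medians, without the transcripts whose mean lay below the lower quartile, with only the arrays compared and without each array in turn. Wider windows of neighbours and Spearman's rho were also used. Whether shared probes or paralogs add to any value was not tested, since single probes were not analysed here.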

Additional observations from a re-analysis of the deposited data

Results flagged for a closer look

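For 9 transcripts (the 5 members, *PRK*, *HEI10*, *MUM4* and AT1G70600), each of 6 groups was examined for an array far from the other 3. Among these 54 groups, 1 stood out: AT4G21650 in WT C replicate 2 was at 5.84, with the other 3 between 5.33 and 5.37, so that the gap to the nearest took 0.911 of the range of the group. About 1 group in 20 passes Dixon's 95% limit by chance. The calls of AT4G21650 in HL and in D against C did not change when this or any other single array was left out.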

How the results depend on the processing

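The differences between *gnat2* and WT of the 5 transcripts kept their sign in all 32 alternatives of each light and moved by less than the spread between replicates. The calls of *PRK* in each light, and those of *MRD1* in D, of AT5G11330 and AT4G21650 in HL and in D and of *RPL27AB* in HL, each against C, were kept as well. With any single array left out, 3 of the 5 were called in HL against C, between 3 and 5 in D against C, and 2 or 3 in HL against D. Values near 0 that were not called changed sign with the array left out: AT3G24516 in HL against C ranged from -0.11 to 0.070, and AT4G21650 in HL against D from -0.052 to 0.087.

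Around the members, 1 neighbour was called in HL without moderation, and with an intensity trend 0 in C and 1 in HL. Around *GNAT2*, 2 were called in D with the trend and 2 in HL with array weights. Without the transcripts below the lower quartile, 0 related genes were called in C. The only one called there in the main fit, AT1G12960, was itself left out by its mean level of 1.24. With only the arrays compared, a fit with fewer degrees of freedom, 0 neighbours were called in C and 0 in D, 0 related genes in C and 0 in D, and 9 transcripts in every light. With single arrays left out, neighbours called ranged from 0 to 1 in C and from 1 to 2 in D, genes around *GNAT2* from 1 to 2 in HL and in D, related genes from 0 to 1 in C, and transcripts in every light from 22 to 45. Over all transcripts, differences called ranged from 97 to 440 in C, from 217 to 810 in HL and from 143 to 1260 in D over all alternatives, beside 361, 533 and 1090. The cause of the other shifts was not tested.

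Same-numbered arrays of different groups gave r between -0.01 and 0.24, with a median of 0.07 and 14 of 60 pairs over 0.1. For WT and *gnat2* in the same light, r lay between 0.06 and 0.24 and was over 0.1 in 8 of 12 pairs. The labels name nothing that same-numbered arrays share, so the numbers were not taken to pair the samples. The block fitted next spans all lights, and pairing within each light was not tested. With the replicate number as a block, 3, 5 and 3 of the 5 were called in HL against C, D against C and HL against D, *RPL27AB* in D being added (adjusted p = 0.0409), and 55 transcripts were called in every light. Levels near or below the array median, as of *MRD1* in *gnat2*, AT3G24516 in WT, *HEI10* and AT1G12960, limit how far a fall or a light response can be measured.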
